A study of Chlamydomonas reinhardtii with 4 samples.

Results

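Late nitrogen starvation (72 h and 96 h, 1 array each) was compared with early starvation (24 h and 48 h, 1 array each) in Chlamydomonas reinhardtii wt cc3491, a unicellular green alga. These are all 4 arrays of the series. Every culture was grown in acetate-containing TAP medium to early stationary phase, washed and kept in TAP without nitrogen under constant light. Starved RNA was labelled with Cy5 and RNA from before the removal of nitrogen (0 h) with Cy3. The 0 h label stands on every array, so late minus early compares starved cells with starved cells. Biological replicates were pooled per the design text, and no time point had a second array. The spread in every test below is therefore the spread between the 2 times of a period, which includes any real change from 24 h to 48 h or from 72 h to 96 h. No dye was swapped, and the 4 arrays shared 1 slide and 1 scan.

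The value of a transcript model was the median, over its probes, of the log2 ratio of starved to 0 h signal. A model counted as apart when both late arrays lay on the same side of both early arrays. Of 14557 models on the array 10772 had a probe well above background and were tested. On the 4 arrays between 24239 and 26786 probes were well above background in Cy5 and between 17101 and 18967 in Cy3, and the median log2 ratio of all models lay between 0.14 and 0.16. Gene names came from the study's tables, where 539 of the tested models had an informative name. Those genes were listed by the study for their response in these or related cultures, so named genes are not a random sample of the array. Where the tables give a symbol to several models, or several symbols to 1 model, the model number is printed.

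Without nitrogen, C. reinhardtii stops dividing, dismantles much of its photosynthetic apparatus, stores starch and triacylglycerol and can differentiate into gametes. A culture held for days in this state may also meet other limits. Under low CO2 the alga builds a carbon-concentrating mechanism, in which transporters in the plasma membrane and the chloroplast envelope move bicarbonate inward and carbonic anhydrases interconvert it with CO2. Under low phosphate it induces high-affinity phosphate transporters and phosphatases. The study names phosphate limitation as an example of a secondary effect that sampling time and growth conditions can bring. Late against early starvation shows which genes of these responses differed with time in the same medium.

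Late values lay above early values for 2284 models (21.2% of those tested) and below them for 2390 (22.2%). A difference of at least 2-fold was found in 248 models with late above early (2.30%) and in 367 with late below early (3.41%). No model passed the limma test (late minus early, Benjamini-Hochberg adjusted p under 0.05). The lowest adjusted p was 0.243, and 1008 models had an unadjusted p under 0.05 (9.36%), of which 355 were higher late. All fold differences below are accordingly descriptions of 2 against 2 arrays. The 0 h channel, which held the same RNA label on each array, was apart in 1749 models above and 1991 below, and by at least 2-fold in 66 and 63 (0.613% and 0.585%). Its SD of late minus early was 0.29, against 0.53 for the ratio. The Cy5 channel taken alone was apart in 2339 models above (21.7%) and 2440 below (22.7%), by at least 2-fold in 258 (2.40%) and 352 (3.27%), together 610 (5.66%). It put late and early apart in the same direction for 208 of the 248 models and for 331 of the 367. Cy5 is the numerator of the ratio that chose these models, so this overlap is not an independent check of them.

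The late arrays agreed on part of these differences. Over all models 72 h minus 96 h had an SD of 0.61, 48 h minus 24 h an SD of 0.51 and late minus early an SD of 0.53. The SD was 0.56 for 96 h minus 48 h and 0.61 for 72 h minus 48 h. The 2 late arrays were thus no closer to each other than to the 48 h array. When differences were formed from arrays that were not shared, 72 h minus 24 h correlated with 96 h minus 48 h at r = 0.35 (Spearman's rho = 0.32, across 10772 models, which are not independent replicates), and 72 h minus 48 h with 96 h minus 24 h at r = 0.22 (rho = 0.19). Among the 367 models lower late, 222 were at least 2-fold below the early mean on both late arrays, 63 at 72 h only and 82 at 96 h only. Among the 248 models higher late, 104 were at least 2-fold above the early mean on both late arrays, 91 at 72 h only and 53 at 96 h only. A steady order over 24, 48, 72 and 96 h was shown by 223 of the 367 and by 97 of the 248. Without the 2-fold limit, 830 of the 2390 models lower late and 822 of the 2284 higher late had such an order. An ordered course is thus also frequent among models with smaller differences. In 118 of the 367 models both late arrays were at least 2-fold below both early arrays, and in 29 of the 248 they were at least 2-fold above them.

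**Figure D1:**
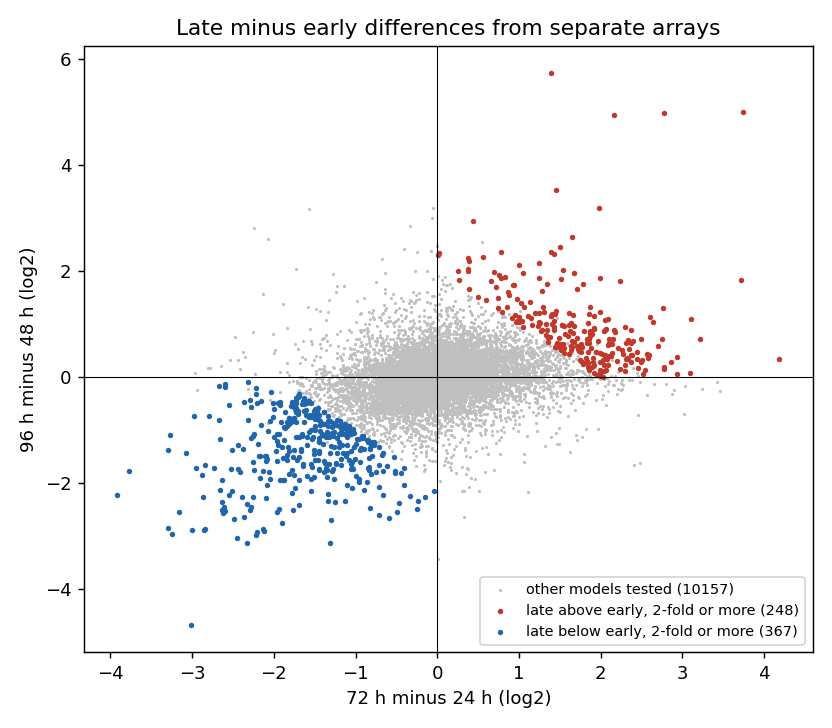
Each point is a transcript model, with 72 h minus 24 h on the x axis and 96 h minus 48 h on the y axis (log2, no array shared between the axes). The 248 models with late at least 2-fold above early are red, the 367 below are blue and the remaining tested models are grey. Of the red models 104 were at least 2-fold above the early mean on both late arrays, and of the blue models 222 were at least 2-fold below it.

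Relative to 0 h, the 2 sets had different starting points. Of the 367 models lower late, 153 were within 2-fold of 0 h early and at least 2-fold below it late, 66 had already been at least 2-fold below 0 h early, and 67 had been at least 2-fold above 0 h early and were within 2-fold of it late. Of the 248 models higher late, 89 had been at least 2-fold below 0 h early and were within 2-fold of it late, while 58 stood within 2-fold of 0 h early and at least 2-fold above it late, and 21 had been at least 2-fold above it early. Models near the 2-fold limit differed little across it. Model 141862 was just inside, at 1.02 and -0.29 late against -0.84 and -0.43 early, and model 9823 just outside, at 1.39 and 1.18 late against 0.03 and 0.54 early.

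Genes of inorganic carbon uptake held the largest measured difference of all models and also 1 of the larger decreases relative to early starvation. Of 18 tested members, 8 lay higher late and 6 lower late, where 21.2% of all models were higher and 22.2% lower. By at least 2-fold 6 were higher and 1 was lower, and the list median was 0.15, against 0.03 over all models. That median was -0.11 without the 96 h array, -0.23 in slot 1, -0.42 in slot 2 and 0.71 with no filter on background. The list contains the low-CO2-inducible genes that the study named and is thus not an unselected view of the pathway. CCP1, a low-CO2-inducible protein of the chloroplast envelope (model 189430, also listed as CCP2, CHLRE_04g223300v5), had log2 ratios of 4.32 at 72 h and 5.04 at 96 h, against 0.58 at 24 h and 0.03 at 48 h. Both late arrays stood above both early ones, by 4.38 ± 0.35 on the log2 scale (SE, 2 arrays each, limma adjusted p = 0.243). This value rests on 1 probe, which was saturated in Cy5 at 96 h, and was 4.02 without that array. CCP2, the related envelope protein (model 128766, CHLRE_04g222750v5), was already raised early, with 3.55 and 5.09 late against 2.55 and 2.97 early. Its late minus early of 1.56 ± 0.54 also came from 1 probe saturated in Cy5 at 96 h and was 0.79 without that array.

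A bicarbonate transporter and a regulator of the pathway stood close to the 0 h level early. HLA3, an ABC transporter for bicarbonate (model 134058, CHLRE_02g097800v5), was at 1.72 and 3.14 late against -0.26 and -0.06 early, a difference of 2.59 ± 0.49 (limma adjusted p = 0.398). Its 2 probes disagreed in size, with 4.66 for the probe that was saturated in Cy5 at 96 h and 0.51 for the other, of slot 3. LCR1, a transcriptional regulator of low-CO2 genes (model 205566), was at 1.90 and 3.60 late and 0.46 and 0.07 early. Its 3 probes gave 2.45, 2.59 and 2.37, and the difference was 2.49 ± 0.58 (adjusted p = 0.398), or 1.64 without the 96 h array. The envelope anion transporter NAR1.2 (model 135648, in another table listed as NDA7) was at 3.57 and 5.29 late against 2.52 and 3.32 early. That difference of 1.51 ± 0.62 was 0.65 without the 96 h array, where 1 of its 3 probes was saturated in Cy5.

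Neighbouring genes on chromosome 16 also lay higher late. LCI15 (model 183344, CHLRE_16g685050v5), named a PRLI-interacting factor, had 2.34 and 3.7 late against 1.62 and 1.99 early, and its 3 probes gave 1.21, 1.25 and 1.31. Its difference of 1.21 was 0.53 without the 96 h array. Model 205698 (CHLRE_16g685100v5), an acetyltransferase and the gene next to it, was at 1.00 and 3.42 late against -1.77 and -1.57 early. The difference of 3.89 ± 0.78 (limma adjusted p = 0.398) was 2.68 without the 96 h array. Its 3 probes disagreed in size, with 4.95, 3.96 and 0.8 in slots 1, 2 and 3. Model 183343 (CHLRE_16g685000v5), on the other side of LCI15 beyond 1 further gene of the RefSeq v5.5 assembly, was at 1.93 and 2.75 late against 1.05 and 1.19 early, and its difference of 1.22 was 0.81 without the 96 h array. LCI30 (model 196277) was below 0 h throughout, at -1.39 and -1.17 late against -2.65 and -1.74 early, and its 0 h signal was saturated on all 4 arrays.

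Other low-CO2 genes lay lower late, overlapped between the periods or were higher by little. LCI6 (model 184094, CHLRE_12g553350v5) was strongly raised early and much less so late, with 0.97 at 72 h and 1.56 at 96 h against 4.21 at 24 h and 4.53 at 48 h. The difference was -3.1 ± 0.30 on the log2 scale, or 8.58-fold lower late (adjusted p = 0.356), with -3.18 and -3.02 from its 2 probes. This value was about the same whichever array was left out, between -2.81 and -3.40. A second model of that name (183315, CHLRE_03g191250v5) was below 0 h on all arrays and differed by -0.70. LCI28, an aldose reductase (-0.67), LCI36 (-0.55), LCI31 (model 135480, -0.47) and the mitochondrial carbonic anhydrase CAH5 (-0.34) were apart below early by less than 2-fold. The periplasmic carbonic anhydrase CAH1, a classical low-CO2 marker, was at -0.52 and -0.19 late and -0.46 and -0.21 early, so its groups overlapped. This rests on 1 probe of slot 3, the slot in which the study placed probes it later left out, so a flat value is weak evidence. The plasma membrane protein LCI1 was apart above early by 0.22, at -0.06 and 0.13 late against -0.29 and -0.10 early. LCI33 (0.14) and the second LCI31 model (189142, 0.16, saturated in Cy5 at 96 h) overlapped. LCI1 and LCI33, like CAH1, rest on 1 probe of slot 3 each. LCID was saturated in Cy5 on all 4 arrays and gives no fold.

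**Figure D2:**
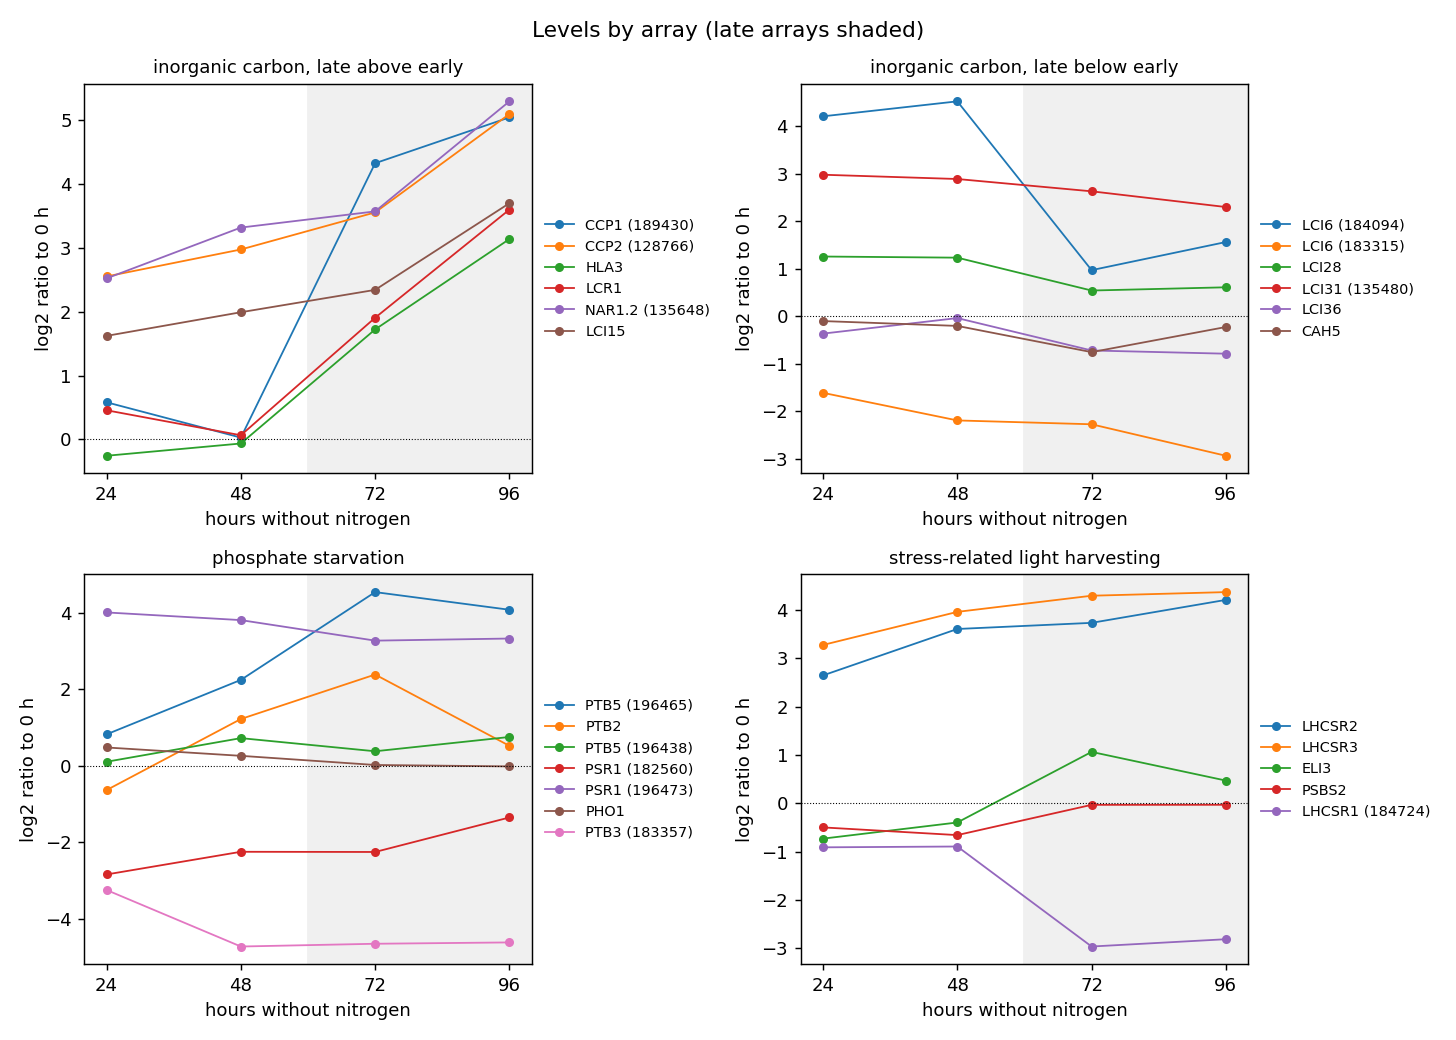
Log2 ratio to 0 h (y axis) of named models on the 4 arrays in order of time (x axis, hours), with the late arrays on a grey ground and 1 line per model. HLA3 stands at 1.72 and 3.14 late against -0.26 and -0.06 early, whereas LCI6 (184094) stands at 0.97 and 1.56 late against 4.21 and 4.53 early.

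In the phosphate list 1 transporter stood out. Of 7 tested members, 1 was higher late and 2 were lower late, where 21.2% of all models were higher and 22.2% lower. The list median was 0.15. The sodium/phosphate symporter listed as PTB5 and as PTB3 (model 196465, CHLRE_07g325740v5) was at 4.54 and 4.08 late against 0.82 and 2.24 early, a difference of 2.77 ± 0.51 (adjusted p = 0.398). It had 1 kept probe, whose 0 h signal was well above background on 2 arrays only. The gene beside it, PTB2 (model 196464, CHLRE_07g325741v5), was at 2.38 and 0.52 late against -0.63 and 1.22 early, so its periods overlapped although all 3 of its probes gave similar differences (1.12, 1.16 and 1.12). PSR1, a regulator of the phosphorus starvation response, was listed for 2 models, of which 196473 was at 3.27 and 3.32 late against 4.0 and 3.80 early and 182560 at -2.25 and -1.35 late against -2.84 and -2.24 early. The alkaline phosphatase PHO1 was at 0.02 and -0.01 late against 0.48 and 0.26 early. A second PTB5 model (196438, 0.15, from 1 probe of slot 3) and PTB3 (model 183357, -0.65) overlapped between the periods.

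Stress-related light-harvesting genes were apart in all 5 tested members, 4 higher late and 1 lower, against 21.2% and 22.2% of all models. LHCSR proteins take part in the dissipation of excess light energy. LHCSR1 (model 184724, also listed as LHCSR2, CHLRE_08g365900v5) was at -2.96 and -2.81 late against -0.91 and -0.89 early. The 2 arrays of each period lay close together, and the difference was -1.98 ± 0.22 (adjusted p = 0.367), with -2.26, -1.98 and -1.0 from its 3 probes. LHCSR2 (model 184731) had 3.74 and 4.21 late against 2.65 and 3.61 early, and LHCSR3 (model 184730) 4.30 and 4.37 late against 3.28 and 3.96 early. Without the 24 h array their differences of 0.84 and 0.71 were 0.36 and 0.37. The early light-inducible protein ELI3 was at 1.06 and 0.47 late against -0.73 and -0.40 early, a difference of 1.33 ± 0.30. PSBS2, a photosystem II-associated protein, was at -0.03 on both late arrays and -0.50 and -0.66 early.

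For some of these genes the 0 h channel was not the same on all arrays. The Cy3 signal of LHCSR2 on the log2 scale was 10.01 and 12.99 on the late arrays against 5.78 and 7.21 on the early arrays, although it was labelled 0 h RNA each time. Its Cy5 signal was 13.74 and 17.19 late against 9.13 and 11.02 early, so that Cy5 alone gave a late minus early of 5.39 where the ratio gave 0.84. For LHCSR3 the Cy3 difference was 3.45 and the Cy5 difference 4.12, for NAR1.2 2.54 and 4.1, for CCP1 2.42 and 6.79, for PTB5 (196465) 1.82 and 4.58, and for HLA3 1.33 and 3.94. The ratios of these genes were in each case smaller than the difference in Cy5. At 96 h a probe of each of them but PTB5 (196465) was saturated in Cy5, so those Cy5 values are as scanned and not exact. Without saturated probes the ratio gave 1.65 for LHCSR2, 0.73 for LHCSR3, 1.69 for NAR1.2 and 0.51 for HLA3, and CCP1 had no probe left. LCR1, with 0.39 in Cy3 and 2.99 in Cy5, and LCI6 (184094), with -0.08 and -3.16, differed less in Cy3. Over all 248 models higher late, Cy3 was at least 2-fold higher late in 7 and at least 2-fold lower late in 27. The part of the Cy3 differences in these results was not tested.

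**Figure D3:**
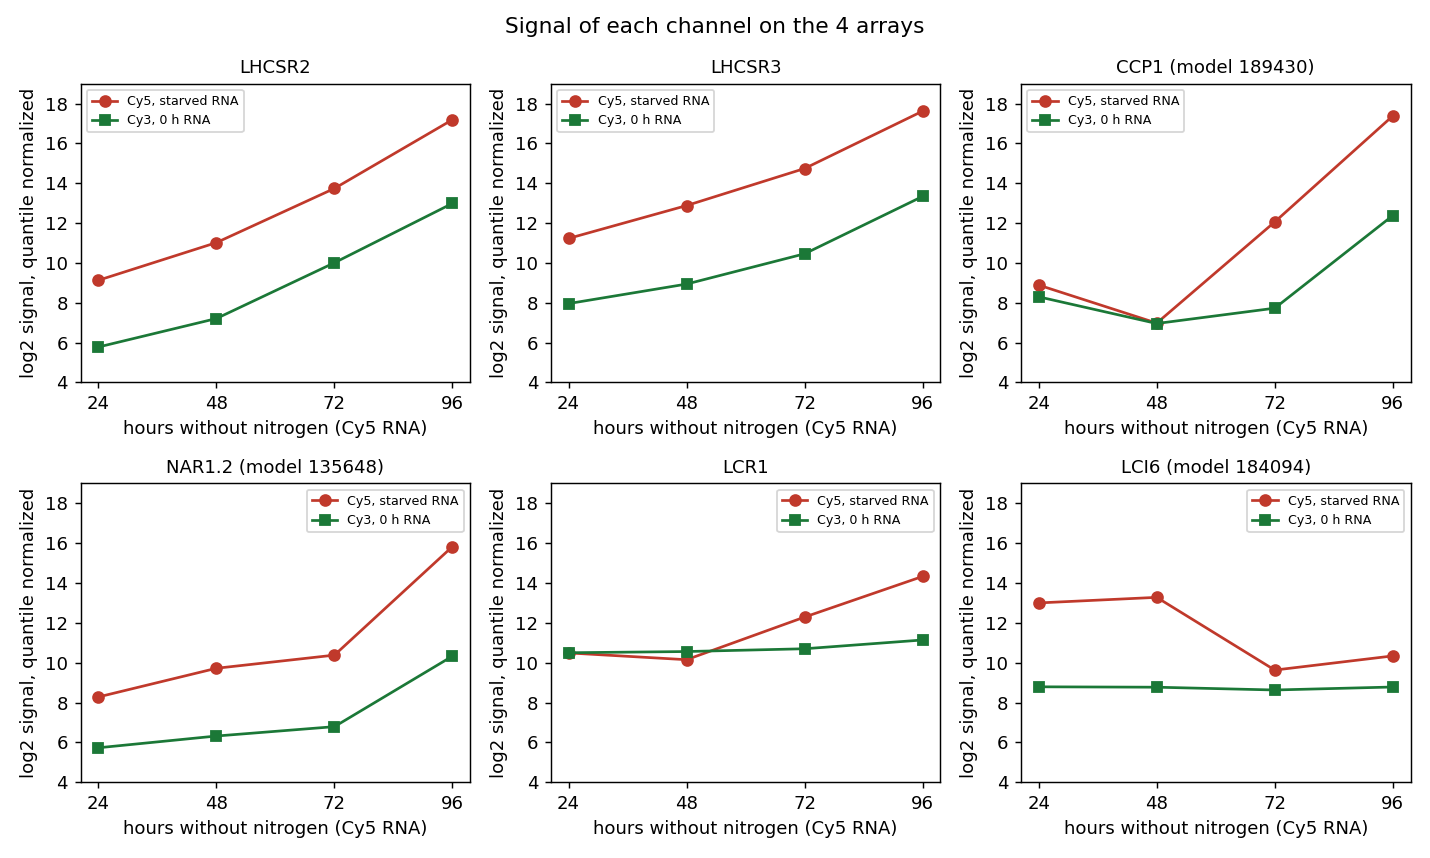
Quantile-normalised log2 signal (y axis) of the starved RNA (Cy5, red circles) and of the 0 h RNA (Cy3, green squares) on the 4 arrays, placed at the time of the starved RNA (x axis, hours). Cy3 is higher on both late arrays than on both early arrays for LHCSR2, LHCSR3 and NAR1.2, is high at 96 h only for CCP1 (12.38, against 7.73 at 72 h) and stays level for LCI6 (184094).

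Nitrogen uptake and assimilation, the functions tied most directly to the missing nutrient, differed little in size between the periods. Of 19 tested members 0 were higher late (21.2% of all models) and 11 were lower late (22.2% of all models). The median difference was -0.23 and only 1 reached 2-fold. The median log2 ratio to 0 h was 2.89 at 72 h and 2.91 at 96 h against 3.03 at 24 h and 2.91 at 48 h. The glutamine synthetase GLN3 was at 5.83 and 5.80 late against 6.10 and 5.98 early, the nitrate transport component NAR2 at 5.25 and 5.31 against 5.86 and 5.83, and the ammonium transporter AMT4 (model 156131) at 5.70 and 5.71 against 6.0 and 5.85. LAO1, a periplasmic amino acid oxidase that releases ammonium from amino acids, was at 3.03 and 2.91 late against 3.67 and 3.63 early, and its Cy3 signal was 2.32 lower late. The amino acid transporter AOT2 (model 206109) was the member past 2-fold, at -1.91 and -0.48 late against 0.64 and 0.04 early, with -1.60, -1.58 and -1.37 from its 3 probes. GLN2 was saturated in both channels on all 4 arrays and gives no fold. Of 4 tested genes of the gametogenesis list 0 were higher late, 2 were lower late (MTA4, -0.29, and MTA4a, -0.19) and 2 overlapped. The agglutinin SAD1, which overlapped, was at 3.49 and 3.50 late against 2.87 and 3.49 early. Its 2 probes gave -0.72 and 1.35, and its signal was higher late by 2.28 in Cy3 and by 2.61 in Cy5.

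Of 8 tested cell cycle genes 0 were higher late (21.2% of all models), 3 were lower late (22.2% of all models) and 5 overlapped. The list median was -0.09. The 3 lower late were ALK2, SMC5B and FTSZ2. Other division genes outside that list were named because they were among the lowest of all named models. CYCB1.a (model 195433), a B-type cyclin of the kind that drives entry into mitosis, was at -3.23 and -4.69 late against -0.62 and -2.25 early. CYCB1.a (206120) and CYCB1.b (195434) had almost the same values, with late minus early of -2.55 and -2.59, and whether the probes of these 3 models bind a common transcript was not tested. Another B-type cyclin model, CYCB1 (185109), was at -2.98 and -2.78 late against -2.60 and -3.93 early and overlapped. The Aurora-like kinase ALK2 was at -2.36 and -2.85 late against 0.06 and -1.06 early (-2.10 ± 0.43, 1 probe, but 0.26 with no filter on background), and the structural maintenance of chromosomes protein SMC5B at -1.79 and -1.70 late against 0.21 and -0.57 early (-1.56 ± 0.32). MIND1, which places the chloroplast division site, was at -3.58 and -3.98 late against -0.73 and -2.32 early, and the plastid division protein FTSZ2 at -2.44 and -2.57 late against -0.50 and -1.5 early. The 2 early arrays of these genes were themselves apart, and the 24 h value was the highest of the 4 in each model named here.

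Genes of the extracellular matrix, a wall of hydroxyproline-rich glycoproteins, were lower late as a list. Of 19 tested members 0 were higher late (21.2% of all models) and 9 were lower late (22.2% of all models), 7 of them by at least 2-fold. The other 10 overlapped. The median difference was -0.81. Relative to 0 h the list median was -0.78 at 24 h and -2.18 at 48 h, against -2.27 at 72 h and -2.60 at 96 h. The largest step thus lay between the 2 early arrays. VSP3 was at -4.66 and -4.96 late against -2.0 and -2.82 early, a difference of -2.40 ± 0.35 (adjusted p = 0.398). Among the pherophorins, PHC1 (model 196399, also listed as PHC15) was at -2.27 and -3.38 late against -0.35 and -1.45 early and PHC15 (148333) at -3.14 and -4.00 late against -1.37 and -2.26 early. PHC17 and PHC13 had been above 0 h early, at 1.57 and 1.31 for PHC17 and 1.44 and 1.41 for PHC13, and their late values were 0.51 and -0.43 for PHC17 and 1.19 and -1.08 for PHC13. PHC13 was saturated in Cy5 on both early arrays in 2 of its 3 probes, and its difference of -1.37 was -0.23 without the 96 h array. Without the 96 h array the list median was -0.45, and without the 72 h array it was -1.09.

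**Figure D4:**
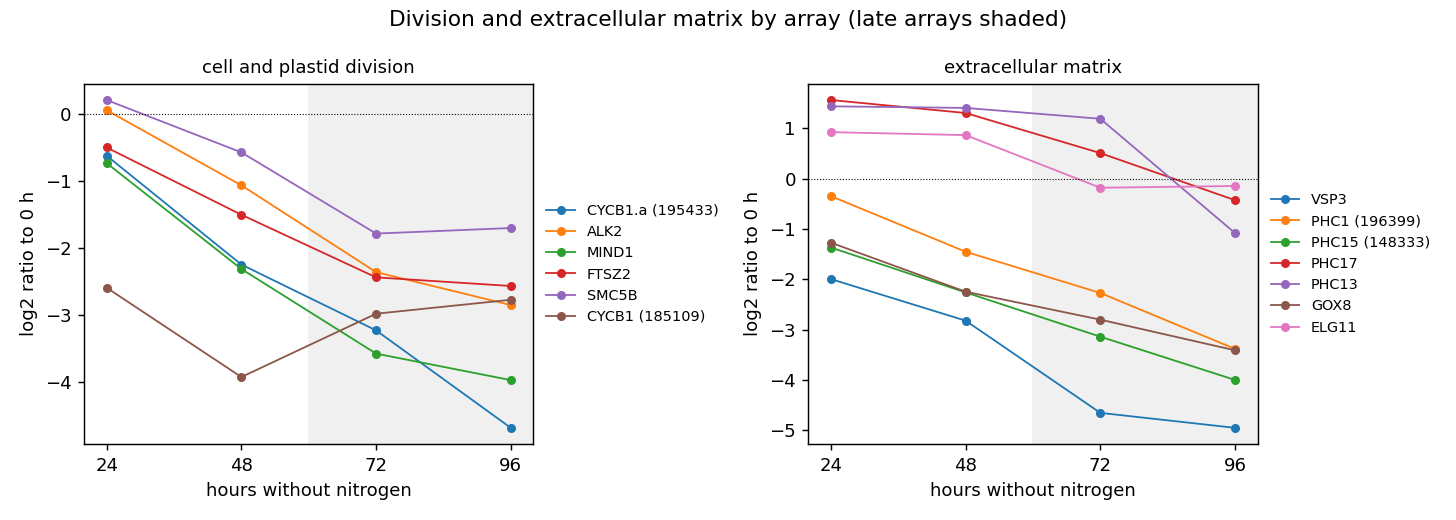
Log2 ratio to 0 h (y axis) by array in order of time (x axis, hours) for division genes (left) and extracellular matrix genes (right), late arrays on a grey ground. All lines but that of CYCB1 (185109) have both late points below both early points.

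Flagellar genes stood higher on the 72 h array than on the other 3 arrays. Of 33 tested members 13 were higher late (21.2% of all models), 11 of them by at least 2-fold, and 0 lower late (22.2% of all models). The median difference was 0.71. The list median was -0.30 at 72 h and -1.95 at 96 h, against -1.87 at 24 h and -1.88 at 48 h. At 72 h 23 of the 33 were at least 2-fold above the early mean, against 542 of all models (5.03%), and at 96 h 1 was, against 387 of all models (3.59%). Leaving out the 72 h array gave a median late minus early of 0.12, and leaving out the 96 h array 1.63. ODA6, an intermediate chain of the outer dynein arm, was at 0.96 and -1.21 late against -1.57 and -1.28 early. FAP292 was at -0.30 and -2.46 late against -2.87 and -2.90 early, and its 3 probes gave 1.34, 1.93 and 1.66. The tubulins overlapped between the periods, with TUB2 at -0.31 and -2.24 late against -0.28 and -0.85 early and TUA1 at -3.52 and -2.38 late against -2.37 and -2.58 early, and their 0 h signals were saturated on all 4 arrays. Both late arrays lay above both early arrays in FMG1-A (model 80367), a flagellar membrane glycoprotein, at -3.81 and -3.32 late against -5.20 and -5.68 early. Its 0 h signal was saturated on 2 arrays in 1 probe. The prolyl isomerase models FKB16-2.a and FKB16-2.c had nearly identical values to FMG1-A (80367), with late minus early of 1.98 and 1.88, against 1.87. Whether these probes bind a common transcript was not tested. A second FMG1-A model (16132) ranked low in the list by late minus early, next above TUA1. The major flagellar membrane glycoprotein FMG1-B (model 158519) was at -5.67 and -5.25 late against -3.14 and -5.58 early and overlapped.

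Of 5 tested genes of anaerobic metabolism 1 was higher late and 2 were lower late, where 21.2% of all models were higher and 22.2% lower. Higher was the hydrogenase HYDA2, which like the acetate kinase ACK1 of the central carbon list stood highest at 72 h. HYDA2 was at 1.46 and -0.26 late against -0.86 and -0.63 early, and ACK1 at 0.81 and -0.36 late against -0.66 and -0.73 early. Without the 72 h array their differences were 0.48 and 0.34. Lower were the ferredoxin FDX2, at 2.64 and 2.40 late against 3.35 and 2.95 early (but 1.04 in slot 2), and the alcohol dehydrogenase ADH1, at 0.52 and -0.11 late against 0.54 and 0.60 early (-0.05 without the 96 h array). CAM2.a, a calmodulin-like protein (model 196881), stood out at 96 h, with 2.14 and 5.78 late against 0.74 and 0.04 early, and its 3 probes gave 3.61, 3.57 and 3.19. The difference was 3.56 ± 1.16 (adjusted p = 0.478), and 1.75 without the 96 h array.

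Some genes of plastid translation, chlorophyll synthesis and initiation were lowest at 24 h. Of 3 tested plastid ribosomal proteins 2 were higher late, of 6 chlorophyll synthesis genes 2 were, and of 7 translation factors 4 were. In each list 0 were lower late and the others overlapped, where 21.2% of all models were higher and 22.2% lower. PRPL31 was at -0.19 and 0.56 late against -2.23 and -0.31 early and PRPL7/L12 at -0.28 and 0.38 late against -2.59 and -0.57 early. Without the 24 h array these differences of 1.46 and 1.63 were 0.50 and 0.62. The tetrapyrrole enzyme PBGD1 (-0.08 and 0.35 late, -1.96 and -0.21 early) and the initiation factor subunits EIF3B (0.04 and -0.99 late, -3.06 and -1.08 early) and EIF3K (-0.42 and -0.45 late, -2.55 and -0.86 early) were also lowest at 24 h. These 3 were 0.35, 0.60 and 0.42 higher late without the 24 h array. No EIF3B probe was well above background in Cy5 on more than 1 early array, and its log2 Cy5 signal at 24 h was 3.97. Its 96 h value was near its 48 h value. In slot 3 alone the direction turned for PRPL7/L12 (-0.36) and PBGD1 (-0.03).

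The light-harvesting list, which holds antenna genes and the nucleic acid binding protein NAB1, stood far below 0 h and slightly less so late. Of 14 tested members 7 were higher late (21.2% of all models) and 1 was lower late (22.2% of all models). NAB1 was 1 of the 7, and its direction turned in Cy5 alone (-0.63). The median difference was 0.45 (0.18 without the 48 h array). The list median was -2.34 at both late times against -2.61 and -2.86 early. LHCBM3 (model 184397, also listed as LHCB5) was at -2.62 and -2.37 late against -3.87 and -3.59 early, although its 0 h signal was saturated on all 4 arrays, which bears on its ratio to 0 h. At least 1 probe each of LHCA1 (184471), LHCA6 (186299), LHCA7 (183363 and 192961), LHCA8, LHCBM4 and LHCBM7 was likewise saturated at 0 h on all 4 arrays. The list medians relative to 0 h carry the same limit. Of 15 genes in the photosystem list, which also holds genes of ATP synthase and electron transport, 5 were higher late and 1 was lower late. PSBX (model 182015) was at -2.44 and -2.35 late against -3.35 and -3.09 early.

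Histone genes divided by family. Of 27 H2A models 0 were higher late and 24 lower late (median -0.63). By contrast, of 26 H2B models 18 were higher late and 3 lower late (median 0.35). The shares over all models were 21.2% higher and 22.2% lower. The H2A median was -2.89 at both late times against -1.78 at 24 h and -2.74 at 48 h, and the H2B median -1.09 at both late times against -1.54 and -1.32. Of 13 H4 models 0 were higher and 1 was lower late. Copies of a histone are near identical in sequence, so these models are not independent measurements. For HTB17 slot 3 gave -0.70 where the model value was 0.74.

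**Figure D5:**
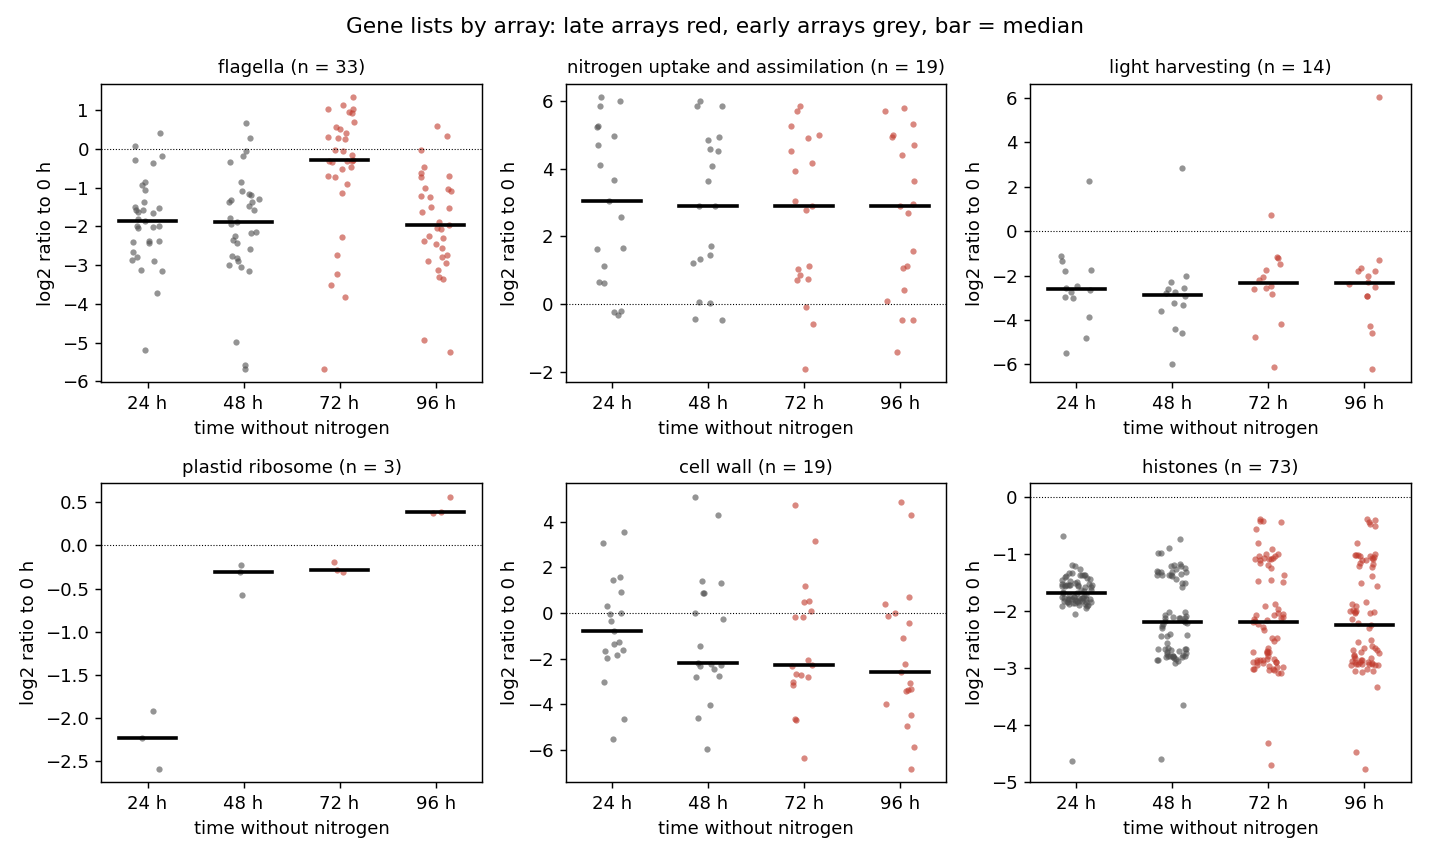
Log2 ratio to 0 h (y axis) of every tested member of 6 gene lists on the 4 arrays (x axis, in order of time), with red points for late arrays, grey points for early arrays and a bar for the median. The flagella list stands higher on the 72 h array only (median -0.30, against -1.95 at 96 h), and the nitrogen list has medians between 2.89 and 3.03.

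The remaining large differences were found across several functions. The lowest model was 190090 (CHLRE_01g047265v5), without a product name, at -1.25 and -3.46 late against 1.77 and 1.2 early, a difference of -3.84 ± 0.74 with -3.82, -3.69 and -4.03 from its 3 probes. Model 182218 (CHLRE_02g101700v5), a hypothetical protein, was at -4.56 and -5.84 late against -1.26 and -2.99 early. The small heat shock protein HSP22D was at -1.67 and -3.06 late against 1.33 and -0.18 early, and HSP22A at -1.5 and -1.68 late against 0.24 and -1.19 early, while the chaperonin CPN60C was at -0.08 and 0.45 late against -0.91 and -1.44 early. The zygote-specific protein ZYS3-1 was at -5.14 and -5.49 late against -1.85 and -4.13 early. The calcium and lipid binding protein of model 185219 was at -0.46 and -1.63 late against 1.45 and 1.11 early, the mitochondrial carrier MITC3 at -3.17 and -3.33 late against -1.0 and -1.42 early, and the arylsulfatase-like ARS5 at -1.61 and -2.16 late against 0.28 and -0.21 early. Superoxide dismutase MSD3 (model 149279) and the thioredoxin reductase NTR3 were 1.21 and 1.13 lower late.

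Members of the lipid and starch lists differed by less than 2-fold. Both lists cover storage only in part. The starch list holds GBS2 and MEX1 beside PFK2, PGM1.b and model 36709 (listed as FAS3 and FBA1), which are not specific to starch. The lipid list includes the sulfolipid genes SQD1 and SQD2. Of 8 members of the lipid list 1 was higher and 2 were lower late, where 21.2% of all models were higher and 22.2% lower. Of 5 members of the starch list 0 were higher and 3 lower late. The glycerol-3-phosphate dehydrogenase GPD1, which feeds glycerolipid synthesis, was at 3.82 and 3.95 late against 3.46 and 3.65 early. The fatty acid desaturase FAD5D was at -0.45 and 0.14 late against 0.74 on both early arrays. The glucose-6-phosphate dehydrogenase listed as GLD2 (model 182461, also listed as GGH1) was the exception in central carbon metabolism, at 3.90 and 3.94 late against 5.73 and 4.78 early.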

How the data were processed

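The authors deposited the scanner output of 4 two-colour Agilent arrays (Feature Extraction 10.7.3.1), whose probes were designed on JGI gene models. Per the file headers, processed intensity values had background subtracted and a linear and lowess dye normalization applied. The deposited log10 ratios entered no result. Set against them by spot, the series' value table differed by 0 at most. Of 43671 probes, 22132 were kept because 1 of the 2 dyes exceeded background clearly on each of the 4 arrays, the dye being the same throughout. Their log2 processed Cy5 over Cy3 ratios were summarised as the median of a model's probes. This gave 3407, 3370 and 3995 models with 1, 2 and 3 probes. Late minus early was fitted with limma 3.58.1 in R 4.3.3 (lmFit and eBayes, 2 residual degrees of freedom, two-sided). Single channels were quantile normalized between arrays, and channel signals are log2 of these. The analysis was tested on simulated data. Errors are standard errors from limma. The number of arrays limits the precision.

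The members, lists and tests were chosen with earlier results of these data known. Named were all tested members of the phosphate, inorganic carbon, nitrogen and stress-related light-harvesting lists, the 10 highest and 10 lowest informatively named models and the 3 highest and 3 lowest of any annotation (late and early apart, at least 2 probes of 1 sign, Cy5 well above background on both arrays of the higher period), and the 2 highest and 2 lowest of each other list with the periods apart. No model was called by limma. Models outside this rule (183343, 205507, 206001, CYCB1 185109, ELG11, FMG1-B, FTSZ2, GOX8, NAB1, ODA6, PHC13, PHC15 148333, PHC17, SAD1, TUA1, TUB2, MSRA2, 186474, 186476, 186478 and those beside the 2-fold limit) were chosen after their values were seen. A few further list members are mentioned only for a shared name or for saturation. Of the tested models 9105 matched a RefSeq locus tag by model number, and loci were used only for names and neighbours. Alternatives to the filter, summary, normalization and test were run.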

Additional observations from a re-analysis of the deposited data

How the results depend on the processing

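With single arrays left out, between 3521 and 4225 models lay above and between 3675 and 4096 below, since fewer arrays have to lie on 1 side. At 2-fold they numbered between 223 and 541 above and between 356 and 631 below. With normexp and loess in place of the processed signals the 2-fold counts were 119 and 164, and the cause was not tested. Slot 3 alone, with fewer models tested, gave 1473 above, 1547 below and 225 below by at least 2-fold, and slot 2 alone gave 1582 below. limma called between 0 and 46 models with single arrays left out (24 without 72 h, 46 without 96 h), where the lone array is assumed to vary like the other period. It called 6 with no filter on background and 0 under the other alternatives run, and 1008 models had an unadjusted p under 0.05. The correlation of 72 h minus 24 h with 96 h minus 48 h lay between 0.273 and 0.457 over the alternatives that did not leave out an array. No paired analysis was possible because the labels give the arrays no replicate numbers.

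The 112 named models with late and early apart had 1717 values under the alternatives, of which 1698 kept their direction. The other 19, in 16 models, were reversed, and the cause was not tested. With 1 slot alone these were CIS2 (model 24263, -1.01), VPS2A (0.03) and LHCBM8 (0.11) in slot 1, FDX2 (1.04), AOC5 (model 182166, 0.34) and NAB1 (-0.03) in slot 2, and CPN10 (-0.76), PRPL7/L12 (-0.36), HTB17 (-0.70), HBV2 (-0.82) and PBGD1 (-0.03) in slot 3. With the Cy5 channel alone they were ARS2 (-0.53), NAB1 (-0.63) and SQD1 (0.00). With no filter on background they were AOC3 (0.28), HSP22A (0.17) and ALK2 (0.26). CIS2 was also reversed without saturated probes (-0.26) and with the mean of probes (-0.11).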

Other observations

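Some models differed more between the 2 late arrays than between the periods. LHCA1 (model 206001), an antenna protein of photosystem I, was at 0.72 and 6.04 late against 2.28 and 2.85 early. This model stood above 0 h on every array, whereas the medians of the light-harvesting list that holds it lay between -2.86 and -2.34. That list also holds a second LHCA1 model (184471), whose values are not given here. MSRA2, a peptide methionine sulfoxide reductase, was at -4.52 and 0.00 late against -2.27 and -0.86 early from 1 probe. That probe was well above background in Cy5 on only 1 late array, with log2 Cy5 signals of 4.04 at 72 h and 8.59 at 96 h. Its 72 h ratio is therefore not an exact measure. The sodium/sulfate co-transporter SLT1 (model 205507) was at 0.07 and 2.76 late against 0.41 and -0.11 early, and its 3 probes gave 1.42, 1.26 and 1.18.

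Of the models at least 2-fold lower late, 3 neighbouring ones without a product name were the longest run of adjacent members, and are given for their values only. Model 186474 was at -0.10 and -1.0 late against 0.94 and 0.72 early. Model 186476 was at -1.16 and -2.35 late against 0.13 and -0.58 early. Model 186478 was at -1.45 and -3.16 late against -0.32 and -0.82 early.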
